A study of Mus musculus with 20 samples.

Results

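The genes described here are the 3 Sox transcription factors of chondrocytes, *Sox9*, *Sox5* and *Sox6*, and 7 proteins of cartilage other than collagens, *Acan*, *Hapln1*, *Comp*, *Matn1*, *Matn3*, *Prg4* and *Cytl1*. They were chosen by gene name and are 10 of the 54532 genes in the count table. RNA was sequenced from condylar heads of the mouse temporomandibular joint (TMJ), collected with part of the subchondral bone. Coordinates of genes are those of GENCODE M21 (GRCm38/mm10). All animals were Acan-Cre;Loxl2 fl/fl, with an inducible Cre expressed from the *Acan* locus, which limits deletion to cells in which that gene is active. Mice 6 months old received vehicle (8 libraries, Control) or tamoxifen (12 libraries, LOXL2_KO) daily for 5 days and then monthly, and were killed after 4 months, and effects of tamoxifen and of the deletion cannot be told apart. Nothing in the labels says whether libraries are single animals, although the study's methods give 8 vehicle and 12 tamoxifen mice, as many as the libraries. The p-values measure the spread between these libraries.

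SOX9 is the transcription factor that chondrocytes need to form and to keep their identity, and SOX5 and SOX6, which have no activation domain of their own, work with it on the genes of the cartilage matrix. Aggrecan, the product of *Acan*, is the large proteoglycan that holds water in cartilage, and the link protein HAPLN1 fastens it to hyaluronan. COMP and the matrilins bridge collagen fibrils and other matrix proteins, CYTL1 is a secreted protein of chondrocytes, and PRG4, or lubricin, is the surface lubricant made by superficial chondrocytes and synovial lining cells.

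Of the 10 members, 8 had enough reads to be tested and *Matn1* and *Matn3* did not. *Sox6* was the single member past the threshold of 0.05 (edgeR quasi-likelihood test, Benjamini-Hochberg adjusted p), and it fell. This is 1 of 8 tested members, while 23% of the 15984 tested genes passed in either direction, with 12% higher and 11% lower in the libraries labelled LOXL2_KO, and the groups did not overlap for 0.3% of tested genes. The tested members had a median log2 fold change of 0.24, and that of all tested genes was -0.018. Values are CPM, counts scaled to a common library size with TMM factors.

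Promoter windows are given for 3 members whose values are set apart below, since *Acan* and *Hapln1* were the matrix genes with the widest range among libraries and *Sox6* was the member that passed. The RefSeq windows (GRCm38.p6) run from 250 bases before to 50 bases after the start, and 7 of the 10 members had one. They lie at chr7:79052976-79053275 (plus strand) for *Acan*, chr13:89540386-89540685 (plus strand) for *Hapln1* and chr7:116038695-116038994 (minus strand) for the first of 6 windows of *Sox6*. Capitals mark a SOX core, searched as ACAATG and ACAAAG on both strands.
Acan: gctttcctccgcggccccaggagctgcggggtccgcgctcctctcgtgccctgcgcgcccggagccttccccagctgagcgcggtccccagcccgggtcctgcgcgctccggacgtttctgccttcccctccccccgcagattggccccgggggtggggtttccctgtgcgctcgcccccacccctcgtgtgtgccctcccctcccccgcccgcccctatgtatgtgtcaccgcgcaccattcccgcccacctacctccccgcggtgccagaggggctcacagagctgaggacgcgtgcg
Hapln1: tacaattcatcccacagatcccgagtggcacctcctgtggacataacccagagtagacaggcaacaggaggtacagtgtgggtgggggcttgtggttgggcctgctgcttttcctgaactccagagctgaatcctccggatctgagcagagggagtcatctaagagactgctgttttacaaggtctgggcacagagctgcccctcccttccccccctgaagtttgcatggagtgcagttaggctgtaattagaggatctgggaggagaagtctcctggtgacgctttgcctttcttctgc
Sox6: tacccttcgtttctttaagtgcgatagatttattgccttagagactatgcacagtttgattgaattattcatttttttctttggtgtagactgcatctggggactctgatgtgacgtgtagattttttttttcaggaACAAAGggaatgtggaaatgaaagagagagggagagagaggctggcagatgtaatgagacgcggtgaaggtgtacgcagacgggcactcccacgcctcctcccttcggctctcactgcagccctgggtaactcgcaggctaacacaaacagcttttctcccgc
The *Acan* window had a GC content of 74%, *Hapln1* 54.3% and *Sox6* 47%, beside a median of 52.7% over 32851 windows. The *Sox6* window held 1 SOX core and the *Acan* and *Hapln1* windows held 0, while 28.6% of all windows of 300 bases held at least 1. The TATA box (TATAAA on either strand) was absent from these 3 windows and present in 13.6% of all windows. Other windows of *Sox6* differed, with 4 SOX cores and 1 TATA box at chr7:115995037-115995336, and 0 and 1 at chr7:115801560-115801859. These counts describe the letters of the windows.

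The libraries held 11153820 to 27045668 counts, and a count of 3 stood for 0.0964 to 0.246 CPM. The targeted gene did not fall: *Loxl2* was at 64.5 ± 30.9 CPM in Control (SD, n = 8) and 101 ± 26.9 CPM in the libraries labelled LOXL2_KO (SD, n = 12), and the log2 fold change came to 0.64 (SE 0.28, adjusted p = 0.101 by edgeR). It was above the Control median in 11 of 12 libraries, and an exact two-sided permutation test of its log2 CPM gave p = 0.0271. Whether reads fall within the deleted part of the gene cannot be read from a count per gene, and the group names below are labels. Transcripts of the Y chromosome were present in 3 of 8 Control and 6 of 12 LOXL2_KO libraries, although the study's methods describe equal numbers of males and females in each group. Chondrocyte markers (11 genes, none a member) summed to 1404 ± 971 CPM in Control (SD, n = 8) and 2289 ± 1403 CPM in LOXL2_KO (SD, n = 12), and *Mia*, *Cnmd* and *Epyc* averaged at most 1 CPM.

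In this chondrocyte list 5 of the 20 libraries stood apart. Control 6 and 8 and LOXL2_KO 4, 5 and 7 held 48.6 to 640 CPM, and the other 15 held 1031 to 4769 CPM. This split was seen in the data and is not a group of the study. Each tested member is therefore given with all 20 libraries and with these 5 left out. In bulk tissue, fewer cells of a type and less RNA per cell cannot be told apart.

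**Figure D1:**
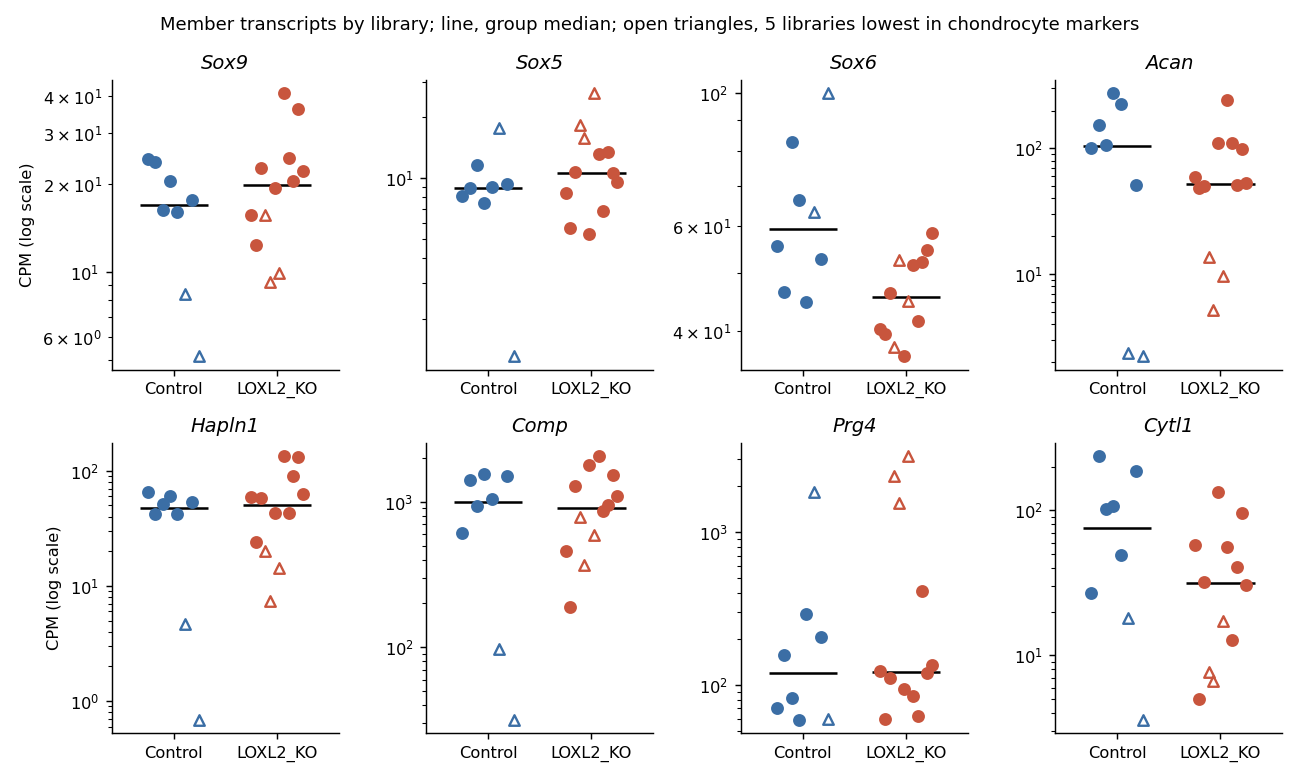
CPM of the 8 tested members on log axes, with 1 point per library, Control (n = 8) in blue and LOXL2_KO (n = 12) in red, black lines at the group medians and open triangles for the 5 libraries lowest in chondrocyte markers. The triangles are at the bottom for *Acan* and *Hapln1*, and 4 of the 5 are at the top for *Prg4* and *Sox5*.

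Among the Sox factors, *Sox6* (chr7:115470872-116038796, minus strand) was lower in the libraries labelled LOXL2_KO. It measured 44.7, 59.4 and 99.9 CPM (lowest, median, highest) in Control and 36.3, 45.7 and 58.3 CPM in LOXL2_KO. None of the LOXL2_KO libraries, 0 of 12, lay above the Control median, although the groups overlapped. The means were 64.0 ± 18.97 CPM (SD, n = 8) and 46.4 ± 7.35 CPM (SD, n = 12), where the log2 fold change came to -0.47 (SE 0.14, adjusted p = 0.018 by edgeR). Control 8 and Control 3 had the highest values, 99.9 and 82.8 CPM. Without Control 8 the log2 fold change was -0.33 and edgeR's adjusted p was 0.067. Without the 5 libraries it was -0.30 (SE 0.14) with an edgeR adjusted p of 0.18.

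*Sox6* is also active in skeletal muscle, where it represses genes of slow fibres. Marker lists of other tissues also had different means in the groups, with muscle lower and bone cells higher in LOXL2_KO. The skeletal muscle list (11 genes) summed to 91250 CPM in Control, from 52420 to 167700, and 60980 CPM in LOXL2_KO, from 37430 to 91160, and 4 of its 11 genes were called lower. Control 8, the library highest in *Sox6*, was also the highest in this list. The osteoclast list (9 genes) summed to 450 CPM in Control, from 136 to 1360, and 2930 CPM in LOXL2_KO, from 575 to 7749, and 8 of its 9 genes were called higher. No gene of either list averaged 1 CPM or less. The osteoblast and osteocyte list (9 genes) summed to 965 CPM in Control, from 183 to 1981, and 2343 CPM in LOXL2_KO, from 302 to 4273. By exact permutation, adjusted over 14 lists, the muscle list had p = 0.0633, the osteoblast and osteocyte list p = 0.0633 and the osteoclast list p = 0.046. Mitochondrial transcripts also moved with the groups, from 15.2% to 23.1% of counts in Control (median 17.3%) and from 9.06% to 18.3% in LOXL2_KO (median 13.1%), and their part in the result was not tested. With the muscle list as covariate the log2 fold change of *Sox6* was -0.25 (adjusted p = 0.277 by edgeR), and with the osteoclast list it was -0.006 (adjusted p = 0.995 by edgeR). The osteoblast and osteocyte list gave -0.24 (adjusted p = 0.372 by edgeR) and the chondrocyte collagen list -0.35 (adjusted p = 0.103 by edgeR). The synovial lining list gave -0.46 (adjusted p = 0.0205 by edgeR). With the osteoclast covariate 0 of all tested genes passed edgeR, 1391 having an unadjusted p under 0.05. Scaling by library totals alone gave -0.29 (adjusted p = 0.0629 by edgeR). In 11 of 17 alternative fits *Sox6* stayed lower and called. Among these were the Y chromosome covariate (-0.47, adjusted p = 0.015 by edgeR) and the replicate block (-0.51, adjusted p = 0.0407 by edgeR). The muscle and bone cell lists moved with the groups, so tissue content and group label cannot be told apart for *Sox6*.

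**Figure D2:**
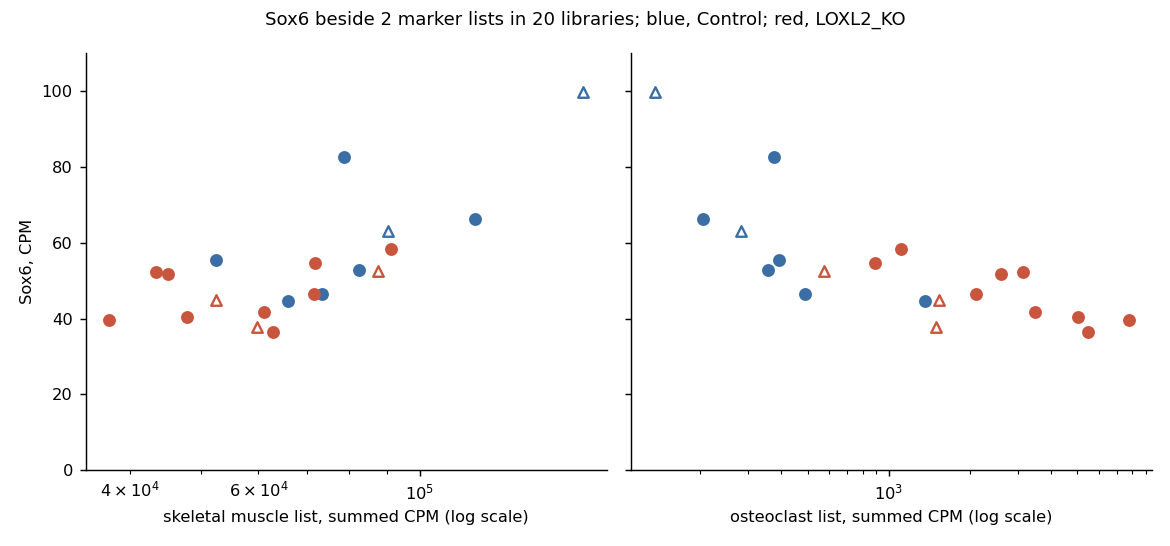
*Sox6* in CPM against the summed CPM of the skeletal muscle list (left) and the osteoclast list (right), both on log axes, with 1 point per library, Control in blue, LOXL2_KO in red and open triangles for the 5 libraries lowest in chondrocyte markers. Control 8 lies at 99.9 CPM, at the highest muscle sum (167700 CPM) and the lowest osteoclast sum (136 CPM).

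The other Sox factors did not pass. *Sox9* (chr11:112782224-112787760, plus strand) measured 5.13, 17.0 and 24.3 CPM (lowest, median, highest) in Control and 9.23, 19.9 and 41.0 CPM in LOXL2_KO, and the groups overlapped over most of their range. Its log2 fold change was 0.33 (SE 0.29, adjusted p = 0.435 by edgeR), and 0.28 (SE 0.22) without the 5 libraries. *Sox5* (chr6:143828425-144781977, minus strand) measured 1.302, 8.94 and 17.8 CPM in Control and 5.26, 10.6 and 26.4 CPM in LOXL2_KO. Its highest values, 15.8 to 26.4 CPM, were those of Control 6 and LOXL2_KO 4, 5 and 7, and Control 8 was lowest. Its log2 fold change of 0.38 (SE 0.33, adjusted p = 0.424 by edgeR) was 0.04 (SE 0.21) without the 5 libraries. An antisense gene, *Sox5os1*, shares 1330 of its exon bases with *Sox5*, and the use of strand in counting is not given in the sources used here.

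Aggrecan and its link protein varied far more among libraries than between groups. *Acan* (chr7:79053483-79115099, plus strand) measured 2.22, 104 and 276 CPM in Control and 5.18, 52.2 and 244 CPM in LOXL2_KO, lowest, median and highest. Its 5 lowest values were those of the 5 libraries named above, and 3 of 12 LOXL2_KO libraries lay above the Control median. The means were 115 ± 99.7 CPM (SD, n = 8) and 71.3 ± 65.4 CPM (SD, n = 12), where the log2 fold change came to -0.69 (SE 0.69, adjusted p = 0.489 by edgeR), and -0.72 (SE 0.39, adjusted p = 0.251 by edgeR) without the 5 libraries. Within groups, log2 CPM of *Acan* had an SD of 2.14, larger than in 99.55% of tested genes, where the median SD was 0.37. From the lowest to the highest of the 20 libraries it spanned 124-fold.

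*Hapln1* (chr13:89539796-89611652, plus strand) measured 0.689, 47.1 and 65.0 CPM in Control and 7.37, 50.8 and 134 CPM in LOXL2_KO. Control 8 and Control 6 were lowest, at 0.689 and 4.70 CPM, and the highest library stood 194-fold above the lowest. The log2 fold change was 0.51 (SE 0.57, adjusted p = 0.543 by edgeR), and 0.46 (SE 0.31) without the 5 libraries. *Hapln1* and *Acan* shared their 5 lowest libraries, and neither fold change passed the threshold. The sign of *Hapln1* turned in other fits, to -0.37 with the chondrocyte collagen list as covariate, -0.92 with the osteoblast and osteocyte list and -0.13 with the replicate block.

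The comparison of *Acan* changed when the amount of chondrocyte collagen transcript was held fixed. The covariate was the mean log2 CPM of *Col2a1*, *Col9a1*, *Col9a2*, *Col9a3* and *Col11a2*, in which each gene has the same weight. With it, the log2 fold change of *Acan* was -1.87 (SE 0.35, adjusted p = 0.0035 by edgeR). The summed CPM of these genes, a measure other than the covariate, was 743 ± 517 in Control (SD, n = 8) and 1782 ± 1043 in LOXL2_KO (SD, n = 12). An exact two-sided permutation test of that sum gave p = 0.0197, adjusted over 14 lists 0.069. In this list 2 of 5 genes were called higher in LOXL2_KO, *Col9a1* (2.12) and *Col11a2* (2.01). The covariate thus moved with the group, and less *Acan* and more collagen transcript cannot be told apart in that fit. Per 100 CPM of *Col2a1*, the main cartilage collagen, *Acan* had 2.88, 22.4 and 132 in Control and 3.38, 6.13 and 10.8 in LOXL2_KO (lowest, median, highest). All 12 LOXL2_KO libraries were below the Control median, and 2 Control libraries, Control 6 and 7, at 2.88 and 6.60, lay within the LOXL2_KO range or below it. The value of 132 is that of Control 8, where *Col2a1* was at 1.68 CPM. This ratio was chosen after the values were seen and is a description.

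**Figure D3:**
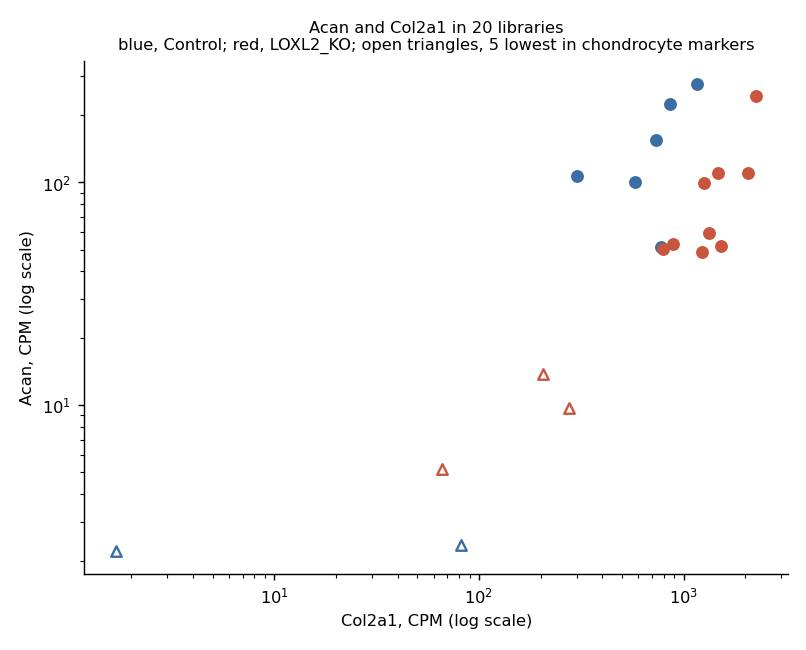
*Acan* against *Col2a1*, both in CPM on log axes, with 1 point per library, Control in blue, LOXL2_KO in red and open triangles for the 5 libraries lowest in chondrocyte markers. At *Col2a1* of 300.5 to 1159 CPM, 5 of the Control libraries lie at *Acan* of 101 to 276 CPM, while 8 of the 9 LOXL2_KO circles lie at 48.9 to 111 CPM and the ninth at 244 CPM, at *Col2a1* of 795 to 2267 CPM. Control 7 lies at 51.1 CPM.

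*Cytl1* (chr5:37735519-37739820, plus strand) measured 3.60, 75.8 and 236 CPM in Control and 4.98, 31.5 and 135 CPM in LOXL2_KO, and 2 of 12 LOXL2_KO libraries lay above the Control median. The groups overlapped over the whole LOXL2_KO range. Its log2 fold change was -1.14 (SE 0.63, adjusted p = 0.193 by edgeR), the most negative of the tested members, and -1.18 (SE 0.55, adjusted p = 0.176 by edgeR) without the 5 libraries. With the collagen covariate, which itself moved with the group, it was -2.07 (adjusted p = 0.0081 by edgeR). Leaving out Control 2, the highest library, gave -0.76.

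*Comp* (chr8:70373558-70382066, plus strand), the member with the highest level per length, had medians close to each other in the groups. It measured 31.8, 991 and 1546 CPM in Control and 189, 904 and 2054 CPM in LOXL2_KO, and Control 8 and Control 6 were lowest at 31.8 and 97.0 CPM. Its log2 fold change was 0.15 (SE 0.52, adjusted p = 0.865 by edgeR), and -0.04 (SE 0.38) without the 5 libraries. Per kilobase of merged exon, the Control mean level was 302 CPM for *Comp*, 86.5 for *Cytl1*, 80.2 for *Prg4*, 15.4 for *Acan*, 6.79 for *Hapln1*, 4.31 for *Sox6*, 3.99 for *Sox9* and 0.64 for *Sox5*. The *Prg4* mean rests on Control 6, being 30.8 without that library, and its Control median was 27.8. Neighbours in this order overlapped within 1 SD of their means at each step from *Comp* down to *Sox9*, and only *Sox9* and *Sox5*, with SDs of 1.65 and 0.32, did not.

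The matrilins were at or near the detection floor. *Matn1* (chr4:130944385-130955475, plus strand) had 0 counts in all 8 Control libraries and at most 2 counts in any LOXL2_KO library, where 2 libraries had any. *Matn3* (chr12:8947929-8972028, plus strand) had 0 to 12 counts in Control and 1 to 34 in LOXL2_KO, with LOXL2_KO 10 highest at 2.79 CPM. Without the filter on low counts, edgeR gave *Matn3* a log2 fold change of 1.21 (adjusted p = 0.244). No fold is given for *Matn1*.

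Lubricin transcripts separated libraries rather than groups. *Prg4* (chr1:150449412-150466165, minus strand) measured 59.0, 119 and 1822 CPM in Control and 59.6, 121 and 3135 CPM in LOXL2_KO (lowest, median, highest). Control 6 and LOXL2_KO 4, 5 and 7 held 1553 to 3135 CPM, and the other 16 libraries held at most 414 CPM. The log2 fold change was 0.997 (SE 0.91, adjusted p = 0.447 by edgeR) over all 20 libraries and -0.10 (SE 0.43, adjusted p = 0.914 by edgeR) without the 5. Without Control 6 it was 2.38 (adjusted p = 0.0685 by edgeR), and without LOXL2_KO 7 it was 0.43. The synovial lining list summed to 224 CPM in Control, from 165 to 359, and 194 CPM in LOXL2_KO, from 128 to 375, and 2 of its 6 genes, *Defb1* and *Pla2g2a*, averaged at most 1 CPM. Most of the mean sum came from *Clic5*, at 155 CPM in Control and 117 CPM in LOXL2_KO. The 5 libraries low in chondrocyte markers were the 5 highest in this list, at 252 to 375 CPM, and the other 15 held 128 to 230.3 CPM. Control 8, among these 5, held 298 CPM of the list but 59.6 CPM of *Prg4*. With this list as covariate the log2 fold change of *Prg4* was 0.38 (SE 0.34, adjusted p = 0.444 by edgeR). The exons of *Prg4* share 204 bases with *Tpr* on the opposite strand.

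With all 20 libraries, 9 of 14 relations of a member with *Acan* passed by Pearson's r (permutation within groups, Benjamini-Hochberg adjusted over the 14). Without the 2 libraries of each group farthest from its median, 0 passed. Relations were also examined outside the 5 libraries lowest in chondrocyte markers, a split made after the values were seen. It removes the 5 lowest values of *Acan* and narrows its range, so a lack of relation there does not show that none exists. In these 6 Control and 9 LOXL2_KO libraries, 0 of 14 relations of a member with *Acan* passed (exact permutation over all pairings, Benjamini-Hochberg adjusted over the 14). The closest was *Sox9* in LOXL2_KO, with r = 0.73 (n = 9, exact permutation p = 0.0294, adjusted 0.412), a Spearman rho of 0.53 (exact permutation p = 0.148, adjusted 0.688) and r = 0.66 without the 2 libraries farthest from the median. With *Prg4*, 0 of 14 relations passed by Pearson's r or by Spearman's rho. In Control the largest r was that of *Hapln1*, -0.76 (n = 6, exact permutation p = 0.103, adjusted 0.48), with a Spearman rho of -0.66 (exact permutation p = 0.175, adjusted 0.483) and r = -0.56 without the 2 farthest libraries. In LOXL2_KO the largest r was that of *Sox5*, 0.62 (n = 9, exact permutation p = 0.0581, adjusted 0.48), a Spearman rho of 0.52 (exact permutation p = 0.162, adjusted 0.483) and r = 0.30 without the 2 farthest. As a description over all 20 libraries, centred on group means, the genes most like *Acan* were *Trpv4* (r = 0.953), a calcium channel of chondrocytes, *Wif1* (0.951), a Wnt inhibitor, *Loxl3* (0.951), a lysyl oxidase, *Col27a1* (0.949), *Itga10* (0.944), a collagen-binding integrin subunit, *Fgfr1* (0.934), *Pth1r* (0.921) and *Wwp2* (0.918). Those most like *Prg4* were *Gfpt2* (0.937), *Has1* (0.934), a hyaluronan synthase, *Lbp* (0.932), *Medag* (0.929) and *F13a1* (0.92). These points share libraries, and the libraries fall in clusters.

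In all, 5 lists of genes that work with the members were counted in the same fit, and 15 of 64 tested genes passed, 12 higher and 3 lower. Over all tested genes 23% passed, 12% higher and 11% lower, so the total is near the share of all tested genes. The chondrocyte collagens had 3 of 7 higher, 0 lower and a median log2 fold change of 0.99. *Col11a1* (2.15, SE 0.50, adjusted p = 0.00581 by edgeR), *Col11a2* (2.01) and *Col9a1* (2.12) rose, and *Col2a1* was at 0.99 (SE 0.68, adjusted p = 0.299 by edgeR). *Col9a1* was low, with means of 0.998 CPM in Control (counts of 1 to 39) and 4.44 CPM in LOXL2_KO (2 to 247). *Col9a2* was at 0.19 (adjusted p = 0.839 by edgeR) and *Col9a3* at 0.39 (adjusted p = 0.689 by edgeR). Among other cartilage matrix proteins, 3 of 18 were higher and 0 lower, with a median of 0.37. They were *Tnc*, encoding tenascin C (1.70, SE 0.35, adjusted p = 0.00261 by edgeR), *Thbs4*, a thrombospondin related to COMP (0.88), and *Vcan*, the proteoglycan versican (1.19). *Hapln3* was at 0.90 (SE 0.33, adjusted p = 0.0506 by edgeR).

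Of the hyaluronan and superficial zone genes, 1 of 13 was higher and 1 lower. *Cd44*, the hyaluronan receptor, rose by 1.11 (SE 0.24, adjusted p = 0.00389 by edgeR) on the log2 scale, and the synthase *Has3* fell by 0.57 (SE 0.21, adjusted p = 0.0487 by edgeR). *Tnfaip6*, a hyaluronan-binding protein, was at 0.77 (adjusted p = 0.0723 by edgeR), and the hyaluronidase *Hyal1* at 0.66 (adjusted p = 0.0868 by edgeR). Among chondrocyte regulators, 3 of 17 were higher, *Barx1* (0.75), *Runx1* (0.73) and *Trps1* (0.61), and 1 was lower, *Mef2c* (-0.36). Of the 9 hypertrophic chondrocyte genes, 2 were higher, *Mmp13*, a collagenase (2.62, SE 0.53, adjusted p = 0.00254 by edgeR), and *Pth1r*, the parathyroid hormone receptor (1.23), and 1 was lower, *Vegfa* (-0.48). *Alpl* was at 0.91 (SE 0.36, adjusted p = 0.0677 by edgeR). Also among the 6 not called, *Col10a1* was at -0.37 (adjusted p = 0.801 by edgeR) and *Ihh* at 0.17 (adjusted p = 0.85 by edgeR). Osteoclast and osteoblast cells also express several of these genes, among them *Mmp13*, *Alpl* and *Runx1*, and the osteoclast list given above differed between the groups (exact permutation p = 0.00329, adjusted over 14 lists 0.046). The skeletal muscle list had a lower mean in LOXL2_KO. The part of either list in these calls, higher or lower, was not tested apart from the covariate fits. In these the lists held 0 calls (osteoclast), 3 (skeletal muscle), 4 (osteoblast and osteocyte), 14 (chondrocyte collagen), 16 (Y chromosome) and 18 (synovial lining).

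**Figure D4:**
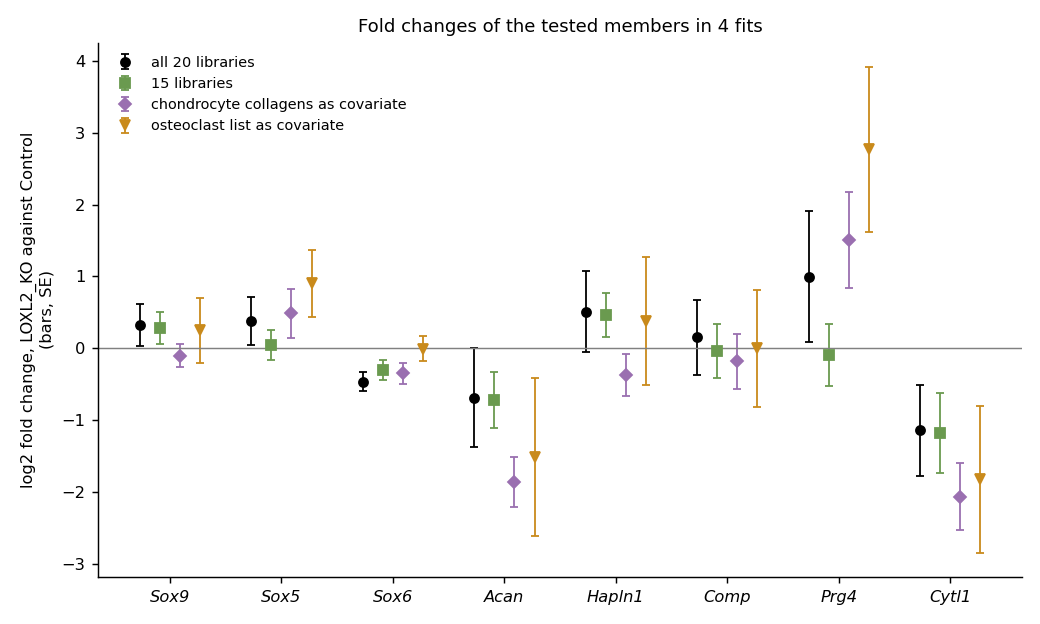
Log2 fold changes of the 8 tested members, LOXL2_KO against Control, with bars of 1 SE, in edgeR fits with all 20 libraries, with the 5 libraries left out (15 libraries), and with the chondrocyte collagen list or the osteoclast list as covariate. *Sox6* goes from -0.47 to -0.006 with the osteoclast list, *Acan* from -0.69 to -1.87 with the collagen list, and *Prg4* from 0.997 to -0.10 in the 15 libraries. Both lists moved with the group, and with the osteoclast list 0 of all tested genes passed.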

How the data were processed

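RNA of 20 libraries (8 Control, 12 LOXL2_KO, grouped by the genotype label) was sequenced by the authors on an Illumina platform, mapped to mm10 and counted per gene with featureCounts. The deposited values are raw counts per Ensembl gene. The aligner, annotation release and use of strand are not given in the sources used here. Of 54532 identifiers, 54495 matched GENCODE M21, which gave symbols and coordinates.

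Genes were kept by filterByExpr (minimum count 10), scaled by TMM and tested two-sided with the quasi-likelihood F-test of edgeR 4.0.16 in R 4.3.3, with Benjamini-Hochberg adjustment over the 15984 tested genes and a threshold of 0.05. SEs were derived from the F statistic, and log2 CPM had a prior count of 2. Single values were compared by exact permutation over all 125970 assignments. Library totals ran from 11153820 to 27045668 counts, and floors of 3 counts cover counting error only. DESeq2 1.42.0, other scalings and filters, covariates, a replicate block and omission of each library were alternatives. Each covariate was the mean log2 CPM of its list. The fits without the 5 libraries lowest in chondrocyte markers, with the osteoblast and osteocyte or the synovial lining list as covariate, and DESeq2 without replacement of outlying counts were chosen after seeing the data. So were the relations among members in the 15 libraries outside these 5. The procedure was tested on simulated data.

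The members and lists were chosen with earlier results of these data known. Genes named were the members, *Loxl2*, the 4 genes of each companion list with the smallest p, and the 8 and 5 genes most like *Acan* and *Prg4*. *Col9a2*, *Col9a3*, *Col10a1* and *Ihh* were named as well, as uncalled genes of these lists. Libraries were compared for duplicates, and the smallest chi-square per degree of freedom among 190 pairs was 32.9.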

Additional observations from a re-analysis of the deposited data

Results flagged for a closer look

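*Prg4* in Control 6 was at 1822 CPM, far above the other 7 Control libraries. The gap to the next library was 0.869 of the range of the 8, beyond the Dixon value of 0.526. For values with a normal distribution, chance gives a gap beyond 0.526 in about 1 of 20 groups, and 10 genes were examined. The CPM were not logged for this, and whether that rate holds for them was not tested. *Acan* in the same library was at 2.35 CPM.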

How the results depend on the processing

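Of 136 member fold changes under the alternatives other than leaving out 1 library, 114 kept their direction and side of the threshold, and for those that did not the cause was not tested. Members called numbered 1 in the reported fit, 0 with library totals, the osteoclast or muscle covariate or without the 5 libraries, and 2 with the chondrocyte collagen or the osteoblast and osteocyte covariate, where *Acan* (-2.69, edgeR adjusted p = 0.0178) and *Cytl1* (-2.49) passed. Signs turned for *Comp* (-0.18 collagen, -0.55 osteoblast, -0.004 osteoclast, -0.037 without the 5 libraries, -0.009 without Control 6, -0.023 without Control 8), *Hapln1* (-0.37 collagen, -0.92 osteoblast), *Sox9* (-0.10, -0.26) and *Prg4* (-0.14 Y chromosome covariate, -0.10 without the 5 libraries). Genes called over all tested genes were 3673, and 2123 with the collagen, 0 with the osteoclast, 636 with the muscle and 621 with the osteoblast covariate, and 1891 without the 5 libraries. With the Y chromosome and synovial lining covariates they were 3795 and 3685. The collagen, osteoclast, muscle and osteoblast lists had different means in the groups, so fits with them cannot tell list and label apart. Calls in the companion lists were 15, and 0, 3 and 4 with the osteoclast, muscle and osteoblast covariates. They were 14, 16 and 18 with the collagen, Y chromosome and synovial lining covariates. Library totals moved the median of all genes by 0.138, from -0.018 to 0.12 (72% of calls higher), and left 0 marker lists past the threshold instead of 1.

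The replicate numbers did not pair the libraries (correlations of deviations from -0.36 to 0.168, 0 controls best with their own number). The replicate block in 16 libraries left 1786 genes and 6 companion genes called, against 3280 genes in these libraries without it, and gave *Hapln1* -0.13 and *Comp* -0.071.

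Leaving out each library in turn gave 0 to 1 members, 10 to 19 companion genes and 2551 to 4181 genes called, and *Loxl2* from 0.50 to 0.78, past the threshold without LOXL2_KO 12 (0.74). *Acan* ranged from -1.05 to -0.36 and *Comp* from -0.023 to 0.324. DESeq2 gave *Prg4* 1.69 (adjusted p = 0.0519), and 0.98 when counts of Control 6 and LOXL2_KO 7 were not replaced. With all libraries 9 of 14 relations with *Acan* passed, and 0 without the 2 farthest libraries of each group or within the 15. Rank correlation kept 2 of the 8 genes most like *Acan*. For the matrilins depth limits what can be said.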
